A study of Homo sapiens with 12 samples.

Results

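Interferon-gamma (IFN-γ) changed gene expression to different extents in 2 human melanoma lines, and the difference between the lines in that change was measured gene by gene. All gene rows of the count tables of all 12 libraries were members, 44700 in number, and 15810 of them had enough counts to be tested. For each gene the log2 change with IFN-γ in SK-MEL-5 was subtracted from the log2 change in MALME-3M. A positive difference is called higher below and means that the gene changed more upward in MALME-3M. A negative difference is called lower and means that it changed more upward in SK-MEL-5. SK-MEL-5 and MALME-3M are established lines from metastatic melanoma, and both were labelled wild type. The 4 groups, of 3 libraries each, were untreated SK-MEL-5, SK-MEL-5 with IFN-γ at 150 ng/mL, untreated MALME-3M, and MALME-3M with IFN-γ at 200 ng/mL. IFN-γ was added at seeding and left on for 24 hours in plate wells set up in triplicate. The lines were also grown in different media, MEM with less serum for SK-MEL-5 and IMDM with more serum for MALME-3M. Effects of line, dose and medium cannot be told apart. Each line was represented by a single culture history, so the p-values measure the spread between wells or libraries, which may be technical.

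IFN-γ binds a receptor made of IFNGR1 and IFNGR2, which activates the kinases JAK1 and JAK2. Signalling from these kinases acts on gamma-activated sites and switches on a first wave of regulators, among them IRF1 and the class II transactivator CIITA. These in turn drive MHC class I and class II presentation, guanylate-binding proteins, antiviral effectors and chemokines. In melanoma cells the pathway is known for making tumour cells visible to T cells and for raising inhibitory ligands such as PD-L1 (CD274).

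The libraries held between 15514412 and 22921184 gene counts. Replicate libraries differed by more than counting noise, with a chi-square per degree of freedom between 5.93 and 17.4 over the 12 replicate pairs, and no pair was counted as 1 sample. All 9 melanocyte-lineage markers were detected, and their summed level stood between 5840 and 6520 CPM (gene counts scaled by each library's TMM-adjusted total) across the 4 groups. Of 11 lymphocyte and NK-cell markers 1 passed the filter on low counts, at a summed level of 0.969 CPM or less. Of 9 monocyte and macrophage markers 2 passed, at 1.24 CPM or less. Keratinocyte and epithelial markers (4 of 9 passed) stood at 18 to 30.9 CPM in SK-MEL-5 and at 335 to 418 CPM in MALME-3M, where most of the sum was E-cadherin (CDH1). Fibroblast markers (5 of 9 passed) stood at 130 to 189 CPM in SK-MEL-5 and at 15.2 to 19.5 CPM in MALME-3M. Their part in the results was not tested.

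The response differed between the lines at 705 genes, 4.46% of those tested (edgeR quasi-likelihood test, Benjamini-Hochberg adjusted p below 0.05, which is what "called" means throughout). Higher were 422 genes, 2.67%, and lower were 283, 1.79%. For comparison, 946 genes (5.98%) rose and 1114 (7.05%) fell in SK-MEL-5, and 1504 (9.51%) rose and 1386 (8.77%) fell in MALME-3M. These within-line changes rest on the same libraries as the difference. The split of the called genes depended on the scaling of the libraries. Higher genes made up 59.86% of the calls with the main scaling (TMM), 53.81% with DESeq2's size factors and 49.2% with upper-quartile scaling. It also depended on single libraries, since without MALME-3M IFN-γ replicate 1 the counts were 275 higher and 362 lower, and without replicate 3 they were 240 and 304. The median difference over all tested genes was 0.0239 on the log2 scale.

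Most calls were small. At least a 2-fold difference was reached by 80 of the higher and 73 of the lower genes, and a test against a difference of 1.5-fold (glmTreat in edgeR) called 42 higher and 40 lower. Of the 80 genes with the larger higher differences, 17 belonged to 8 lists of interferon pathway genes, and of the 73 with the larger lower differences, 19 did. Among the smaller calls those lists held 5 of 342 higher genes and 28 of 210 lower genes. Of all tested genes they held 155, or 0.98%. In 144 of the 422 higher genes the fitted change was upward in both lines, in 240 it was upward in MALME-3M and downward in SK-MEL-5, and in 38 it was downward in both. Of the 283 lower genes, 104 went upward in both lines, 124 upward in SK-MEL-5 and downward in MALME-3M, and 55 downward in both. Only 39 of the higher and 17 of the lower genes were called in opposite directions in the 2 lines. Across all 15810 genes the log2 changes in the 2 lines, which share no library, had a Pearson correlation of 0.444 and a Spearman correlation of 0.319, with genes as points that are not independent.

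**Figure D1:**
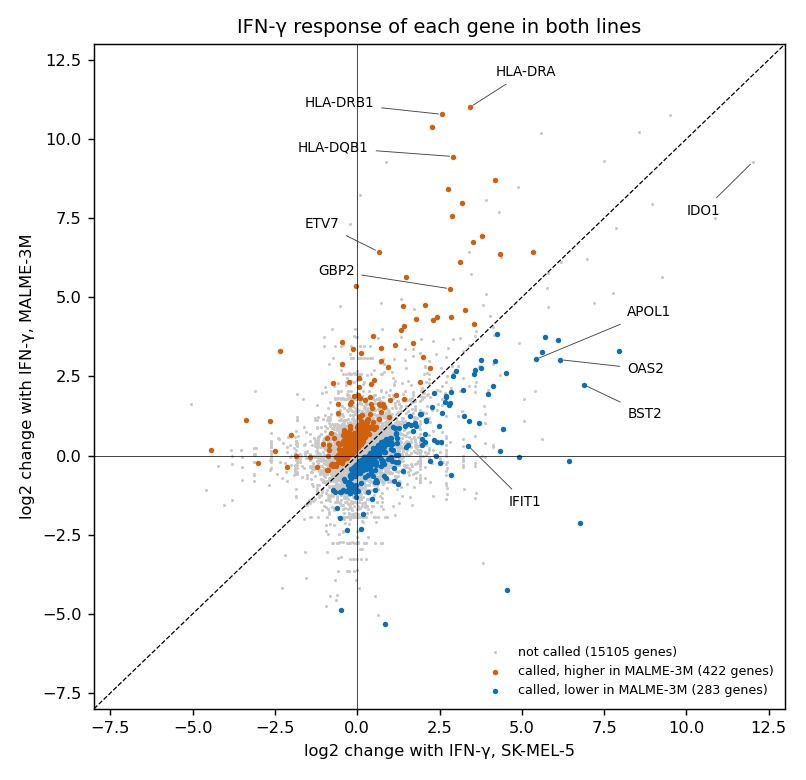
Log2 change with IFN-γ in SK-MEL-5 (horizontal axis) and in MALME-3M (vertical axis) for each of the 15810 tested genes, with the 422 higher genes in orange, the 283 lower genes in blue and the line of equal change dashed. HLA class II genes lie far above the line and BST2, OAS2 and APOL1 below it; IDO1, drawn far from the line, was not called.

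The receptor chain IFNGR1 and the kinases JAK1 and JAK2 showed no called difference between the lines. IFNGR1 stood at 23.4, 22.4 and 23.5 CPM in untreated and 24, 21.2 and 21.5 CPM in treated SK-MEL-5, and at 35.1, 33 and 33.9 and then 33.5, 32.6 and 31.9 CPM in MALME-3M. Its difference between the lines was -0.01 ± 0.10 (log2, ± SE, adjusted p = 1, edgeR). The kinase genes were not called either, with differences of 0.05 ± 0.08 for JAK1 and 0.33 ± 0.11 for JAK2 (adjusted p = 0.84 and 0.12). JAK2 was called in 1 of 23 alternative analyses.

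Of 25 receptor, JAK-STAT and IRF genes tested, 4 were higher and 1 was lower (20% called, against 4.46% of all genes). The list's median difference was 0.05. ETV7, an ETS-family repressor, showed the largest difference of the called genes. It read 0.0636, 0.267 and 0.0507 CPM in untreated and 0.245, 0.323 and 0.0651 CPM in treated SK-MEL-5, against 0.361, 0.121 and 0.364 and then 23.1, 23 and 29.8 CPM in MALME-3M. Only the treated MALME-3M libraries were high, and the other 3 groups overlapped. The difference was 5.78 ± 0.96 (adjusted p = 0.00094, edgeR), and it was lost without untreated SK-MEL-5 replicate 2 (adjusted p = 0.12) and with transcript estimated counts (adjusted p = 0.99).

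BATF3, a basic leucine zipper factor, rose from 7.44, 11.3 and 10.1 to 27.8, 25.1 and 23.4 CPM in SK-MEL-5. In MALME-3M it rose from 0.301, 0.543 and 0.468 to 11.3, 10.3 and 13.9 CPM, so the larger fold began from the lower level and the treated level was still lower than in SK-MEL-5. The difference in log2 change was 3.34 ± 0.30 (adjusted p = 9.4e-07). IRF1, the main secondary activator, rose from 5.91, 4.76 and 4.46 to 204, 206 and 202 CPM in SK-MEL-5 and from 3.55, 2.83 and 2.45 to 235, 235 and 289 CPM in MALME-3M. Its difference of 1.08 ± 0.17 (adjusted p = 0.00054) was called in 20 of 23 alternatives. STAT3 was higher by 0.50 ± 0.07 and the type I receptor chain IFNAR2 lower by -0.59 ± 0.09 on the log2 scale.

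IRF8, a partner of IRF1, differed widely in treated level without a called difference. It read 0.0636, 0.178 and 0.0507 CPM in untreated and 24.5, 21.6 and 25.4 CPM in treated SK-MEL-5. MALME-3M held 1 count in the untreated group and 0.601, 0.702 and 1.35 CPM with IFN-γ. The treated groups were far apart, but the MALME-3M fold of 47.8 had an exact 95% counting interval from 8.23 to 1920, and the difference was called in 1 of 23 alternatives but not in the main analysis (adjusted p = 0.6, edgeR).

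Feedback inhibitors were divided. SOCS3 rose from 35.6, 34.3 and 30.8 to 69, 84.7 and 73.6 CPM in SK-MEL-5 and from 16.4, 17.6 and 15.3 to 59.5, 61.9 and 65.1 CPM in MALME-3M, a difference of 0.75 ± 0.12 (adjusted p = 0.0005). USP18, which removes ISG15 and restrains type I interferon signalling, went the other way. It rose from 7.5, 9.04 and 8.52 to 33.6, 38.2 and 33 CPM in SK-MEL-5 but only from 17.9, 21.1 and 17.7 to 26.6, 23.7 and 26.4 CPM in MALME-3M. The untreated level was thus the higher one in MALME-3M and the treated level the higher one in SK-MEL-5, with a difference of -1.62 ± 0.14 (adjusted p = 7.7e-07). PTPN1 was lower by -0.36 ± 0.07, and SOCS1, at 3 CPM or less in every library, was not called (1.94 ± 0.75, adjusted p = 0.18). Of the 14 feedback genes tested, 1 was higher and 2 were lower (21.4% called, against 4.46% of all genes).

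MHC class II genes formed the clearest group of higher genes. Of 16 tested, 11 were higher and none lower, against 2.67% and 1.79% of all genes, and the median difference was 2.88 on the log2 scale (2.28 with groups of 3 counts or fewer set at 3 counts). Leaving out any one library gave 10 or 11 higher genes. The same 14 of the 16 genes rose in both lines. CIITA, the master regulator of the class II genes (chr16:10866222-10943021, GRCh38), rose from 2.99, 2.18 and 2.59 to 51.8, 45.7 and 57.3 CPM in SK-MEL-5 and from 1.98, 1.81 and 1.25 to 134, 120 and 157 CPM in MALME-3M. Every treated MALME-3M library was above every treated SK-MEL-5 library, while the untreated MALME-3M libraries were the lowest of all. The difference was 2.03 ± 0.23 (adjusted p = 2e-05, edgeR), and it was called in 23 of 23 alternatives.

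The classical class II chains, which form the peptide-binding receptors, showed the largest differences. HLA-DRA (chr6:32439842-32445046), the DR alpha chain, read 3.37, 2.63 and 2.18 CPM in untreated and 24.6, 30.3 and 31.8 CPM in treated SK-MEL-5. In MALME-3M the untreated group held a single count over its 3 libraries, and the treated libraries read 50.1, 51.1 and 56.8 CPM. The order of the lines was thus reversed by treatment, with no overlap between any of the groups. The MALME-3M fold was 2770, with an exact 95% interval of 497 to 110000 that covers counting error only. With the 1-count group set at 3 counts the difference between the lines was 6.44 on the log2 scale (adjusted p of the fit 6.1e-09, edgeR).

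HLA-DRB1, the main DR beta chain (chr6:32578769-32589848), read 1.65, 2.36 and 2.18 and then 11.8, 12.5 and 13.3 CPM in SK-MEL-5. It had 1 count in untreated MALME-3M and 39, 44.7 and 51.7 CPM with IFN-γ, a fold of 2390 (exact 95% interval 429 to 94600). HLA-DRB5 had no count in untreated MALME-3M, so its level of 7.57, 9.13 and 9.92 CPM with IFN-γ was at least 157-fold higher, with the floor set at 3 counts over the group. Its change in SK-MEL-5 was 2.28 ± 0.29 on the log2 scale. HLA-DRB1 and HLA-DRB5 are near-identical and polymorphic, so counts may be split between them, and their separate values are uncertain.

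HLA-DQB1 (chr6:32659467-32668383), a DQ beta chain, rose from 1.34, 1.38 and 0.862 to 8.71, 11.5 and 6.71 CPM in SK-MEL-5 and from 0.12, 0 and 0.104 to 56.1, 55.5 and 61.7 CPM in MALME-3M. Of the class II genes with more than 3 counts in every group, it had the largest difference, 6.53 ± 0.50 (adjusted p = 1.3e-07). HLA-DPA1 rose from 3.63, 2.67 and 2.94 to 33.3, 36.8 and 34.5 CPM and from 0.902, 0.965 and 0.729 to 97.2, 88.8 and 92.5 CPM. Here the difference was 3.23 ± 0.18, and for HLA-DPB1, whose gene overlaps HLA-DPA1, it was 4.54 ± 0.53 (adjusted p = 1.4e-09 and 2.1e-05). In all of these chains MALME-3M began lower and ended higher than SK-MEL-5.

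The accessory genes differed less. CD74, the invariant chain that guides class II molecules to the loading compartment, rose from 17.5, 20.8 and 14.9 to 166, 176 and 177 CPM in SK-MEL-5 and from 28.3, 24.4 and 26.8 to 625, 656 and 651 CPM in MALME-3M, a difference of 1.32 ± 0.12 (adjusted p = 6.5e-07). It was the only called class II gene already at the higher level in untreated MALME-3M. HLA-DMA, a peptide exchange chain, was higher by 2.53 ± 0.31, and RFX5, a subunit of the factor that binds the X box of class II promoters, by 0.70 ± 0.08. The cathepsin CTSS (0.36), RFXAP (0.01) and RFXANK (0.18) were not called, and neither were HLA-DMB (0.94, adjusted p = 0.099) and HLA-DOA, which had no count in untreated MALME-3M.

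**Figure D2:**
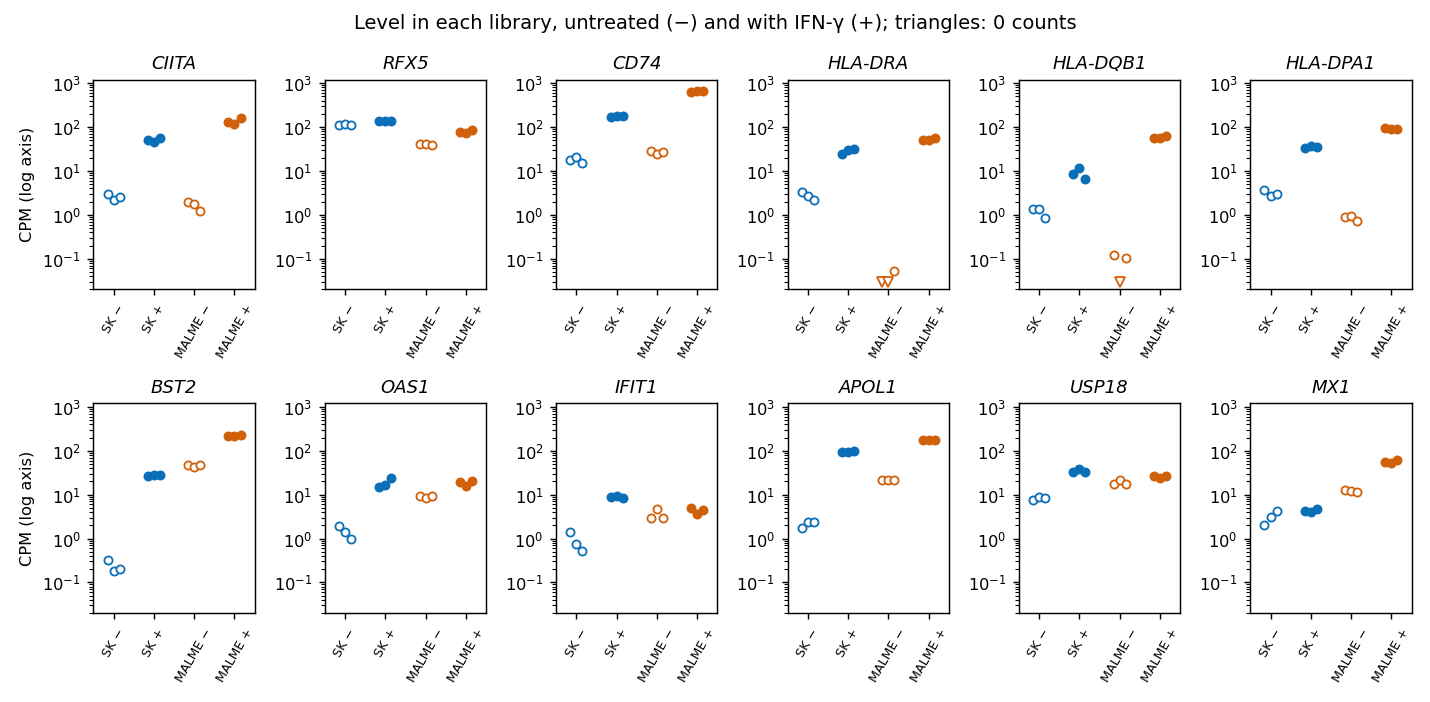
Level of 12 genes in each library in CPM on a log axis, with SK-MEL-5 in blue, MALME-3M in orange, open points untreated and filled points with IFN-γ; triangles mark libraries with 0 counts. In the upper row untreated MALME-3M starts at or below untreated SK-MEL-5 for all genes but CD74 and ends above treated SK-MEL-5 for all but RFX5, and in the lower row BST2, OAS1, IFIT1, APOL1 and USP18 start higher in MALME-3M and rise by a smaller fold.

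The gene starts of the most changed genes can be compared directly. For the interferon, presentation, antiviral and GTPase lists, the 3 most positive and the 3 most negative called genes with a sequence in the RefSeq promoter table (GRCh38.p14) are shown by the 250 bases before the start site, 5′ to 3′ on the gene's strand. Capitals mark matches on either strand to a gamma-activated site (TTCNNNGAA), an interferon response core (GAAANNGAA) or the class II Y box (CTGATTGG), and some matches overlap. The higher genes are HLA-DRB1 (chr6:32589849-32590098, minus strand), HLA-DRB5 (chr6:32530288-32530537, minus strand) and HLA-DQB1 (chr6:32666658-32666907, minus strand). The lower genes are BST2 (chr19:17405631-17405880, minus strand), IFIT1 (chr10:89392373-89392622, plus strand) and OAS1 (chr12:112906712-112906961, plus strand).
HLA-DRB1: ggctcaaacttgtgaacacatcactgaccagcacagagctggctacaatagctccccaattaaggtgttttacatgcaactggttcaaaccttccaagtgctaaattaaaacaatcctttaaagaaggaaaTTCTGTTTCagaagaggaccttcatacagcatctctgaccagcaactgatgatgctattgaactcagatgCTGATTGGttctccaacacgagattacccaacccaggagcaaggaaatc
HLA-DRB5: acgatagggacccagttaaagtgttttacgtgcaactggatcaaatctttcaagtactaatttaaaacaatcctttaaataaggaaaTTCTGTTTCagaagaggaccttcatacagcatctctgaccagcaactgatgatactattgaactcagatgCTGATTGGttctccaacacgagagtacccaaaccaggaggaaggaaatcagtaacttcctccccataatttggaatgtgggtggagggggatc
HLA-DQB1: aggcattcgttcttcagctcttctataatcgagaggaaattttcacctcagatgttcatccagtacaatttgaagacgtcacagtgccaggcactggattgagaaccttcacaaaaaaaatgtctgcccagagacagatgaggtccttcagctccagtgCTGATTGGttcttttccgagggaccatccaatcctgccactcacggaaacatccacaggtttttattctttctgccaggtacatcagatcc
BST2: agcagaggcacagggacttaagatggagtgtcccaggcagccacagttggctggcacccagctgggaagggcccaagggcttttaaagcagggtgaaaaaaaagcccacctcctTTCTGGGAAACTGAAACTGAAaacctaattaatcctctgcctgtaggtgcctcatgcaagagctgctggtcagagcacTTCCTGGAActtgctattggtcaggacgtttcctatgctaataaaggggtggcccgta
IFIT1: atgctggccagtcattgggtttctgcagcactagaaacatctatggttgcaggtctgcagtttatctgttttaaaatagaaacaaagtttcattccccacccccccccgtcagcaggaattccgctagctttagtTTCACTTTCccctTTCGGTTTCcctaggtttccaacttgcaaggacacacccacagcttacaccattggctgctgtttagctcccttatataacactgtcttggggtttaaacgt
OAS1: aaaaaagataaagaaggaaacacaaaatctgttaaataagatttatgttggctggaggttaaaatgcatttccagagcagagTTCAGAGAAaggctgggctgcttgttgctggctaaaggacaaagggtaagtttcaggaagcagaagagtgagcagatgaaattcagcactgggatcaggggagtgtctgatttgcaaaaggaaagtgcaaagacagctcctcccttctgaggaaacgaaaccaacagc
Each of the 3 class II sequences held the Y box, and the 2 DR beta sequences also held an interferon response core on the opposite strand. BST2 held 2 gamma-activated sites, 1 of them overlapping a pair of overlapping interferon response cores, IFIT1 held 2 response cores on the opposite strand, and OAS1 held 1 gamma-activated site. Shares were taken over windows of 300 bases, which add 50 bases after the start. Of all 27305 promoters, 7.88% held the gamma-activated site, 8.29% the response core and 4.16% the Y box. Among the 10326 promoters of tested genes the shares were 6.36%, 6.64% and 5.7%. Among the called antiviral genes lower in MALME-3M, 24 of 28 had a promoter entry, of which 6 (25%) held the gamma-activated site, 13 (54.2%) the response core and 0 the Y box. Of the called class II genes 9 of 11 had an entry, of which 5 (55.6%) held the Y box, 3 (33.3%) the response core and 1 (11.1%) the gamma-activated site. A match is a description of these letters and not evidence of binding. The Y box is a class II element added after the data were seen, so its share among class II genes is no test. Members of these lists without a call were not counted, so the shares do not bear on the difference between the lines.

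MHC class I genes did not follow class II. Of 23 tested, 3 were higher and 5 lower (34.8% called, against 4.46% of all genes). The median difference was -0.06, and 20 rose in each line. HLA-B, a classical heavy chain, rose from 154, 153 and 143 to 597, 595 and 599 CPM in SK-MEL-5 and from 110, 108 and 104 to 914, 924 and 964 CPM in MALME-3M. MALME-3M again began lower and ended higher, with a difference of 1.13 ± 0.06 (adjusted p = 1.1e-09). B2M, the shared light chain, rose from 255, 235 and 241 to 887, 925 and 949 CPM and from 253, 271 and 262 to 1353, 1315 and 1268 CPM, a difference of 0.41 ± 0.06 (adjusted p = 0.00063). HLA-C was higher by 0.36 ± 0.07, while HLA-E was lower by -0.32 ± 0.07.

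Of the class I genes that cut and carry peptides, PSMB8, PSMB9 and TAP1 were lower, and TAP2, TAPBP, ERAP1, ERAP2, PSMB10, PSME1 and PSME2 were not called. The immunoproteasome subunit PSMB9 rose from 5.91, 6.41 and 4.41 to 60.9, 72.1 and 65.7 CPM in SK-MEL-5 and from 11.4, 12.2 and 11.8 to 76, 75.7 and 78.3 CPM in MALME-3M, a difference of -0.86 ± 0.14 (adjusted p = 0.00068). The treated groups were close and the untreated groups were apart. PSMB8 was lower by -0.84 ± 0.11. The transporter TAP1 was called at -0.41 ± 0.11 (adjusted p = 0.034) in the main analysis but in 12 of 23 alternatives, and the class I activator NLRC5 was not called (-0.35 ± 0.20, adjusted p = 0.4). PSMB9 overlaps both PSMB8 and TAP1, and whether strand was used in counting is not given in the sources used here.

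Antiviral interferon-stimulated genes were the main group of lower genes. Of 49 tested, 28 were lower and 1, MX1, was higher (59.2% called, against 4.46% of all genes). The median difference was -0.80 (-0.62 with groups of 3 counts or fewer set at 3 counts). The number of lower genes was 26 to 29 when any one library was left out, and 15 in the test against 1.5-fold. In each line 45 of the 49 rose, and 43 rose in both. BST2, or tetherin, which holds budding virus at the cell surface (chr19:17402939-17405648), read 0.318, 0.178 and 0.203 CPM in untreated and 27, 27.9 and 27.5 CPM in treated SK-MEL-5. In MALME-3M it read 48.5, 43.6 and 47.3 CPM before and 217, 213 and 225 CPM after treatment. All 4 groups were apart, and untreated MALME-3M already stood above treated SK-MEL-5. The log2 change was 6.89 ± 0.12 in SK-MEL-5 and 2.23 ± 0.06 in MALME-3M, a difference of -4.66 ± 0.16 (adjusted p = 2.3e-12, edgeR).

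The oligoadenylate synthetases, which sense double-stranded RNA, were lower for OAS1, OAS2 and OAS3, while OASL was not called (-1.35 ± 1.67, adjusted p = 0.77). OAS2 rose from 0.445, 0.49 and 0.913 to 45.7, 45.7 and 43.6 CPM in SK-MEL-5 and from 9.56, 9.28 and 8.8 to 73.4, 67.7 and 84.2 CPM in MALME-3M, a difference of -3.14 ± 0.21 (adjusted p = 1.1e-08). OAS1 (chr12:112906777-112933222) rose from 1.91, 1.42 and 0.963 to 14.8, 16.3 and 23.9 CPM and from 9.5, 8.38 and 9.21 to 19.7, 15.9 and 20 CPM. Its treated groups overlapped, so the difference of -2.66 ± 0.28 (adjusted p = 7.5e-06) came with unequal untreated and like treated levels. OAS3 had means of 50.4 ± 1.4 and 196 ± 13.1 CPM in SK-MEL-5 and of 58.3 ± 6.82 and 72.7 ± 1.37 CPM in MALME-3M (SD, n = 3), a difference of -1.64 ± 0.10. Here the untreated levels were close and the treated levels apart.

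IFIT1, which binds foreign RNA ends (chr10:89392546-89406486), read 1.4, 0.757 and 0.507 and then 9, 9.31 and 8.27 CPM in SK-MEL-5. MALME-3M read 2.89, 4.76 and 2.92 and then 4.93, 3.65 and 4.58 CPM, so its groups overlapped and its change was not called (0.32 ± 0.24, adjusted p = 0.42). The difference between the lines was -3.05 ± 0.37 (adjusted p = 3.8e-05). Other lower genes were IFI27 (-2.34), IFI44 (-2.31), XAF1 (-1.97), UBA7, the activating enzyme for ISG15 (-1.94), and TRIM22 (-1.91). Smaller calls included IFIT2 (-1.21), IFI6 (-1.17), UBE2L6 (-0.99), SAMHD1 (-0.95), PARP14 (-0.85), IFIT3 (-0.75) and EIF2AK2, the kinase PKR (-0.68). ISG15 itself was not called (-0.86, adjusted p = 0.28), nor were RSAD2 (-0.95) and IFITM3 (0.13).

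MX1, a dynamin-like GTPase against influenza and other viruses, was the exception. It read 2.04, 3.12 and 4.21 and then 4.16, 4.04 and 4.62 CPM in SK-MEL-5, where the groups overlapped and the change was not called (0.43 ± 0.18, adjusted p = 0.14). In MALME-3M it rose from 12.7, 11.8 and 11.3 to 56.5, 53.6 and 63.2 CPM, which made the difference 1.85 ± 0.22 (adjusted p = 3.1e-05).

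Levels without and with IFN-γ placed both groups of genes. For the 11 called class II genes the median log2 ratio of MALME-3M over SK-MEL-5 went from -1.83 untreated to 1.41 with IFN-γ (groups of 3 counts or fewer set at 3), and the number of genes higher in MALME-3M went from 1 to 10. For the 29 called antiviral genes the median ratio went from 0.89 to -0.16, and the number higher in MALME-3M from 25 to 13. The distance between the lines was smaller with IFN-γ than without for 19 of these 29 genes and for 8 of the 11 class II genes. Over all tested genes the median log2 ratio was -0.02 untreated and 0.002 treated. The 11 and 29 genes were chosen by their called difference in response, and the levels come from the same libraries. The direction of their shift was thus set by that choice. Over all 16 tested class II genes the median fitted log2 ratio went from -1.66 to 1.27. Over all 49 tested antiviral genes it went from 0.67 to -0.12.

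**Figure D3:**
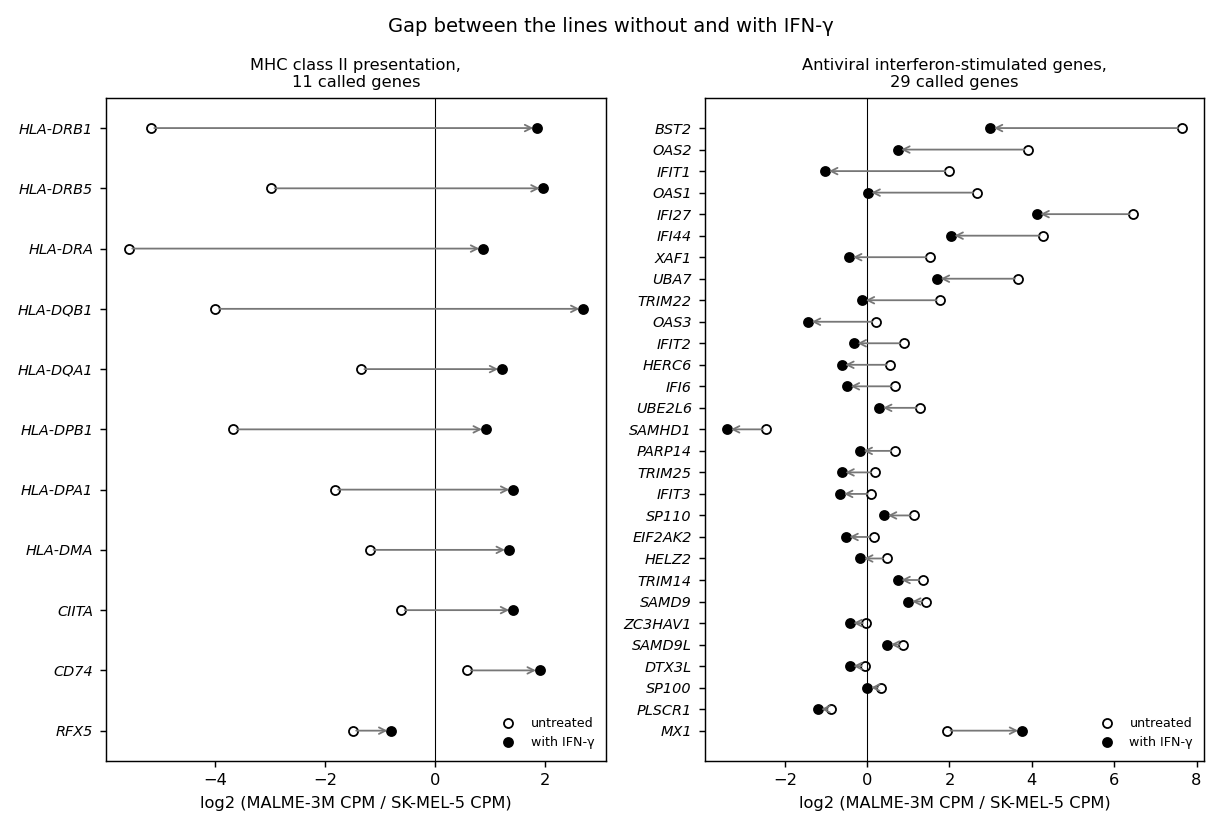
Log2 ratio of the mean CPM in MALME-3M over that in SK-MEL-5, untreated (open points) and with IFN-γ (filled points, at the arrow's end), for the 11 class II genes and the 29 antiviral genes with a called difference. The direction of an arrow follows the sign of the called difference by which the gene was chosen. Arrows point right for all 11 class II genes, 9 of which cross 0, and left for all antiviral genes but MX1. Groups of 3 counts or fewer are set at 3 counts.

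A fold change weighs a rise against its starting level, and the amount gained gave another order. BST2 gained 27.3 CPM in SK-MEL-5 and 172 CPM in MALME-3M, although it was lower on the log2 scale. APOL1 gained 92 and 156 CPM, XAF1 87.8 and 61.4 CPM, and CIITA 49 and 135 CPM. Of the 28 lower antiviral genes, 9 gained more CPM in MALME-3M and 19 more in SK-MEL-5. Over all lower genes with an upward change in both lines, 29 of 104 gained more in MALME-3M, and over all such higher genes 121 of 144 did.

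Apolipoproteins L, interferon-inducible proteins with ties to trypanosome lysis and membrane traffic, were lower in 4 of 5 tested (80%, against 1.79% of all genes). Their median difference was -1.21. APOL1 rose from 1.72, 2.36 and 2.38 to 92.7, 92.2 and 97.5 CPM in SK-MEL-5 and from 21.5, 22.1 and 21.3 to 177, 177 and 179 CPM in MALME-3M. No group overlapped another, and the difference was -2.39 ± 0.11 (adjusted p = 4.9e-11). APOL3 was lower by -2.45 ± 0.47, APOL6 by -1.21 ± 0.08 and APOL2 by -0.54 ± 0.11. All 5 genes rose in each line.

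Of 14 nucleic acid sensing genes, 5 were lower and 1 was higher (42.9% called, against 4.46% of all genes). The RNA helicase RIG-I (DDX58) rose from 4.71, 4.76 and 4.11 to 24.4, 24.4 and 30 CPM in SK-MEL-5 and from 9.2, 6.39 and 8.38 to 9.74, 11.5 and 11.3 CPM in MALME-3M, a difference of -2.09 ± 0.20 (adjusted p = 1.9e-06). DHX58 and IFIH1, the other helicases of that family, were lower by -0.99 ± 0.20 and -0.79 ± 0.18. AIM2, which binds double-stranded DNA and starts an inflammasome, was higher instead. It rose from 2.54, 3.38 and 2.94 to 26.6, 27.2 and 24.1 CPM in SK-MEL-5 and from 0.601, 0.422 and 0.26 to 30.5, 27.4 and 30.4 CPM in MALME-3M, a difference of 2.99 ± 0.26 (adjusted p = 6.5e-07). The other lower genes were the DNA sensor IFI16 (-0.36 ± 0.06) and SLFN5 (-0.64 ± 0.08).

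Guanylate-binding proteins, GTPases that attack pathogen vacuoles, did not move as 1 group. GBP2 rose from 4.71, 5.21 and 3.8 to 33, 32.6 and 32.2 CPM in SK-MEL-5 and from 7.94, 7.35 and 8.28 to 304, 281 and 324 CPM in MALME-3M, a difference of 2.44 ± 0.13 (adjusted p = 7.2e-10). GBP3 had 0.572, 0.49 and 1.06 and then 7.09, 5.92 and 7.42 CPM in SK-MEL-5, against 48.4, 38.2 and 38.8 and then 98, 94.6 and 106 CPM in MALME-3M, a difference of -2.00 ± 0.24 (adjusted p = 3.3e-05). GBP2 and GBP3 thus differed in opposite directions. GBP1, which lies between them on chromosome 1, was not called (-0.05 ± 0.22, adjusted p = 0.96, edgeR). It stood at 85.8 to 94.8 CPM in treated SK-MEL-5 and 183 to 250 CPM in treated MALME-3M. Of 9 tested GTPase genes 1 was higher and 2 were lower (33.3% called, against 4.46% of all genes). The other lower gene was GIMAP2 (-0.84 ± 0.20).

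Of 19 chemokine and cytokine genes, CXCL9, a ligand of CXCR3 on T cells, and IL18BP, a decoy for IL-18, were higher, and TNFSF13B, the B-cell factor BAFF, was lower, which makes 15.8% called against 4.46% of all genes. CXCL9 had 1 count in untreated MALME-3M and 7.09, 5.39 and 7.04 CPM with IFN-γ, against 0.783, 1.51 and 1.17 CPM in treated SK-MEL-5. Its fold in MALME-3M was 339 (exact 95% interval 60.5 to 13400), and the call (adjusted p = 0.032) held in 15 of 23 alternatives. CXCL10 had no count in any untreated library of either line. With IFN-γ it read 1.17, 1.18 and 1.24 CPM in SK-MEL-5 and 5.23, 2.29 and 5.07 CPM in MALME-3M, at least 23.1-fold and at least 72.1-fold above the 3-count floor, and its difference was not called. TNFSF13B rose from 1.84, 3.03 and 2.64 to 12.2, 13.5 and 12.3 CPM in SK-MEL-5 and was not called in MALME-3M (0.49, adjusted p = 0.15), a difference of -1.83 ± 0.30 (adjusted p = 0.00089).

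Of 15 tested genes of tryptophan, kynurenine and aryl hydrocarbon receptor (AHR) handling, WARS and AHRR were higher and none was lower. This made 13.3% called, against 4.46% of all genes, and the AHRR call held in 4 of 23 alternatives. IDO1, which degrades tryptophan, had 2 counts in untreated SK-MEL-5 and none in untreated MALME-3M. With IFN-γ it read 160, 172 and 183 CPM in SK-MEL-5 and 3.61, 3.37 and 5.34 CPM in MALME-3M, with no overlap. The fold was 4940 in SK-MEL-5 (exact 95% interval 1370 to 40800) and at least 72.7 in MALME-3M, and the difference was not called (adjusted p = 0.94, edgeR), although limma voom called it. Genes that only SK-MEL-5 expressed (49 genes) read 0.126% to 0.167% of their SK-MEL-5 level in treated MALME-3M libraries. WARS, the tryptophanyl-tRNA synthetase, rose from 531, 557 and 527 to 6391, 6372 and 6197 CPM in SK-MEL-5 and from 240, 236 and 239 to 4142, 4155 and 4437 CPM in MALME-3M, a difference of 0.60 ± 0.06 (adjusted p = 1.6e-06).

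Inhibitory ligands included calls in both directions, 3 higher and 2 lower of 13 (38.5% called, against 4.46% of all genes). CD47, the signal that restrains phagocytes, rose from 83.4, 92.7 and 85.3 to 117, 119 and 108 CPM in SK-MEL-5 and from 58.7, 65.3 and 59.5 to 151, 140 and 163 CPM in MALME-3M, a difference of 0.91 ± 0.09 (adjusted p = 4.8e-06). CEACAM1 was higher by 0.73 ± 0.09 and TNFRSF14 by 0.38 ± 0.08. CD274 (PD-L1) rose from 0.827, 0.802 and 0.507 to 7.73, 9.26 and 8.08 CPM in SK-MEL-5 and from 5.77, 7.48 and 7.03 to 36.5, 36.2 and 48.8 CPM in MALME-3M. All 4 groups were apart except that untreated MALME-3M came near treated SK-MEL-5, and the difference of -0.97 ± 0.27 sat at the threshold (adjusted p = 0.049) and held in 10 of 23 alternatives. Of 12 complement genes, C1S, the protease of the classical pathway, was higher by 2.68 ± 0.16 (120 to 123 CPM in treated MALME-3M, 35.8 to 39.1 CPM in treated SK-MEL-5).

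**Figure D4:**
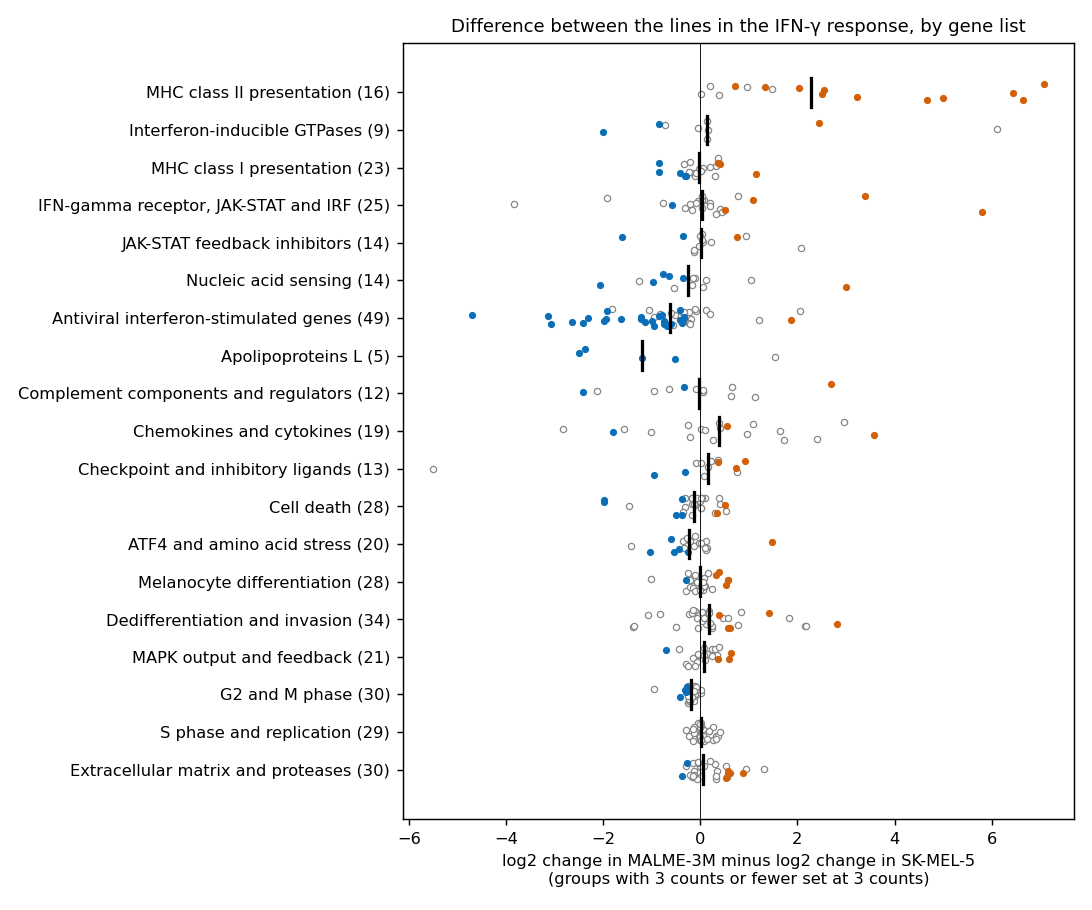
Difference in log2 change (MALME-3M minus SK-MEL-5) of each tested gene in 19 lists, with the number tested in brackets, called higher genes in orange, called lower genes in blue, other genes open and the list's median as a black bar; groups of 3 counts or fewer are set at 3 counts. The class II median lies at 2.28, the antiviral median at -0.62 and the G2 and M phase median at -0.20.

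Of 28 cell death genes, 5 were lower and 2 higher (25% called, against 4.46% of all genes). CASP1, the inflammasome protease, rose from 2.99, 2.49 and 3.45 to 15.7, 17.1 and 14.7 CPM in SK-MEL-5 and from 37.3, 32.7 and 30.5 to 44.8, 46 and 44.2 CPM in MALME-3M, a difference of -1.99 ± 0.16 (adjusted p = 1.6e-07). The survival factor MCL1 was higher by 0.34 ± 0.08 and gasdermin E (DFNA5) by 0.50 ± 0.12.

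Amino acid stress genes, targets of ATF4, were lower in 5 of 20 and higher in 1 (30% called, against 4.46% of all genes). The cystine importer SLC7A11 fell from 63.1, 70.4 and 61.4 to 43.1, 41.1 and 42.5 CPM in SK-MEL-5 and from 33, 37.8 and 41.7 to 12.9, 11.4 and 11.8 CPM in MALME-3M, so the fall was deeper in MALME-3M by -1.02 ± 0.12 (adjusted p = 1.9e-05). The serine synthesis enzymes PHGDH (-0.61 ± 0.09) and PSAT1 (-0.45 ± 0.07) and the asparagine synthetase ASNS (-0.53 ± 0.10) were lower too. PHGDH fell in MALME-3M from 95.2, 89.1 and 88.1 to 62.4, 62 and 63.5 CPM and was not called in SK-MEL-5 (0.07, adjusted p = 0.54). ATF3, a stress-induced factor, was the higher one, by 1.46 ± 0.24.

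Proliferation genes of G2 and M phase were lower in 6 of 30 (20%, against 1.79% of all genes). A negative difference was seen in 29 of the 30, with a median of -0.20. Of the 30, 23 fell in MALME-3M and 3 in SK-MEL-5. KIF20A, a mitotic kinesin, read 106, 104 and 96.8 and then 109, 104 and 109 CPM in SK-MEL-5 and fell from 87, 85.2 and 80.4 to 65.1, 69.4 and 65.2 CPM in MALME-3M, a difference of -0.41 ± 0.08 (adjusted p = 0.0027). The number of lower genes was 12 with upper-quartile scaling, 2 to 12 when single libraries were left out and 0 against 1.5-fold, and no member differed by more than the 1.5-fold test could call. MKI67 was among the lower genes (-0.24 ± 0.06, adjusted p = 0.03), while CDKN1A and all 29 S-phase genes had no call.

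Lineage and signalling genes gave scattered calls. MITF and SOX10, which define the melanocyte lineage, were not called (0.07 ± 0.08 and 0.24 ± 0.08, adjusted p = 0.77 and 0.1). Of 28 differentiation genes 5 were higher and 1 lower (21.4% called, against 4.46% of all genes). S100B, 1 of the higher genes, fell from 172, 173 and 158 to 140, 127 and 131 CPM in SK-MEL-5. In MALME-3M it rose from 657, 622 and 660 to 724, 718 and 769 CPM (0.53 ± 0.07, adjusted p = 0.00013, edgeR). TRPM1 was higher by 0.58 ± 0.11 and RXRG by 0.56 ± 0.12. Of 34 dedifferentiation and invasion genes 5 were higher and none lower (14.7% called, against 4.46% of all genes). The 5 were CDH1, CDH2, JUN, FN1 and NT5E, and 2 to 4 genes were higher when single libraries were left out. CDH1 is also among the epithelial markers above, so the 5 calls are not read as a shared shift towards invasion. The call of E-cadherin (CDH1) held in 8 of 23 alternatives. N-cadherin (CDH2) fell from 4.32, 3.79 and 3.3 to 1.42, 1.29 and 1.43 CPM in SK-MEL-5 and held between 49.7 and 58.1 CPM in MALME-3M (1.41 ± 0.16, adjusted p = 2.2e-05). Fibronectin (FN1) rose in MALME-3M from 1206, 1168 and 1147 to 1846, 1787 and 1933 CPM and was not called in SK-MEL-5, at 1870 to 2099 CPM (0.56 ± 0.06, adjusted p = 4.5e-06).

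Among MAPK output genes, 3 of 21 were higher and 1 lower (19% called, against 4.46% of all genes). Of the higher ones, HMGA2 was called in 8 of 23 alternatives and SPRY4 in 11. With upper-quartile scaling only 1 member was higher. Cyclin D1 (CCND1) rose from 249, 243 and 228 to 405, 435 and 413 CPM in SK-MEL-5 and was not called in MALME-3M, at 1662 to 1828 CPM, a difference of -0.70 ± 0.06 (adjusted p = 6.3e-07). The immediate-early gene PHLDA1 went the other way, falling in SK-MEL-5 and rising in MALME-3M (0.59 ± 0.08). Of 30 matrix and protease genes, 5 were higher, with COL9A3 (0.87 ± 0.19), COL4A2 (0.59 ± 0.11) and MMP17 (0.58 ± 0.07), and 2 were lower, with TIMP3 at -0.27 ± 0.06. The share called was 23.3%, against 4.46% of all genes. The lysosomal glycoprotein CD68 fell from 216, 212 and 210 to 121, 116 and 110 CPM in MALME-3M and was not called in SK-MEL-5 (17.8 to 25.1 CPM), a difference of -1.0 ± 0.13 (adjusted p = 6.4e-05). No gene was called among 15 heat shock chaperones, 17 melanoma antigens, 7 NK-cell ligands and 13 mitochondrially encoded genes.

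Some of the largest differences belonged to genes of no interferon list. VWA1, an extracellular matrix protein, read 5.91, 5.57 and 5.32 and then 6.11, 6.46 and 5.67 CPM in SK-MEL-5 and rose from 1.44, 1.09 and 1.04 to 10.6, 11.3 and 11.5 CPM in MALME-3M (3.11 ± 0.22, adjusted p = 4.4e-08). SLITRK2, a neuronal transmembrane protein, stayed at 8.95 to 10.8 CPM in SK-MEL-5 and went from 0.241 CPM or less to 1.38, 1.17 and 0.628 CPM in MALME-3M (3.50 ± 0.57). LRRTM2, a synaptic adhesion protein inside the gene CTNNA1, rose from 2.35, 1.96 and 2.08 to 26.7, 27.4 and 33.6 CPM in SK-MEL-5 and from 3 counts to 8.11, 6.98 and 8.52 CPM in MALME-3M, a fold of 137 there (exact 95% interval 46.7 to 668). PPP1R16B was higher by 2.67 ± 0.43, and the secreted and transmembrane protein SECTM1 by 4.69 ± 1.17 (adjusted p = 0.026, held in 17 of 23 alternatives). Lower were the prohormone convertase PCSK1 (-2.44 ± 0.43) and the potassium channel partner KCNIP4 (-2.39 ± 0.28), which rose in SK-MEL-5 from 0.382, 0.623 and 0.76 to 2.59, 2.96 and 3 CPM and read 63.6 to 94.9 CPM in MALME-3M. SLC15A3, a lysosomal peptide transporter, had no count in untreated SK-MEL-5 and 1.71, 1.83 and 1.37 CPM with IFN-γ, at least 31.9-fold higher, and rose from 1.38, 0.663 and 0.625 to 8.41, 8.1 and 9.69 CPM in MALME-3M.

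Other large differences rested on uneven libraries. UGT2A1 read 0.191, 0.178 and 0.304 CPM in untreated and 58.4, 4.15 and 12 CPM in treated SK-MEL-5, and 34.1, 7.35 and 5.21 and then 4.39, 6.27 and 0.135 CPM in MALME-3M. The SK-MEL-5 groups did not overlap, while the MALME-3M groups did. XKR7 read 3.33, 139 and 196 CPM in treated SK-MEL-5 and 0, 13.1 and 0.0507 CPM in untreated SK-MEL-5. MRVI1 read 26.8, 1.63 and 147 CPM in untreated MALME-3M. Their differences of -8.89, -8.80 and -6.15 were called in the main analysis and were lost in edgeR's robust fit and in limma voom. E-cadherin (CDH1) read 1.27, 1.34 and 9.53 CPM in untreated SK-MEL-5, and its difference of 2.80 ± 0.77 fell to 1.16 without the last of these (replicate 3), where it was still called (adjusted p = 0.022). The call was lost when any one of the 9 libraries of the other groups was left out, and it held in 8 of 23 alternatives. FBLN7 (-3.45 ± 0.90) had 1 count in untreated SK-MEL-5 and was reversed in the transcript tables. RP11-162D16.2, a noncoding locus, had 10 counts in untreated and none in treated MALME-3M, at least 3.84-fold lower.

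Of the genes called in opposite directions in the 2 lines, 3 are described here. PLEKHA4, a WNT-pathway adaptor, rose from 26.5, 31.1 and 38.9 to 71, 73.8 and 66.4 CPM in SK-MEL-5 and fell from 466, 393 and 399 to 309, 326 and 313 CPM in MALME-3M (-1.53 ± 0.13, adjusted p = 6.3e-07). C11orf96 rose from 10.7, 10.1 and 10.7 to 14.6, 15.9 and 16.3 CPM and fell from 9.38, 8.62 and 8.8 to 4.87, 5.15 and 5.61 CPM (-1.35 ± 0.16). In both genes untreated and treated groups did not overlap in either line. RGS3, which switches off G proteins, fell from 6.49, 8.1 and 6.95 to 3.96, 4.2 and 4.23 CPM in SK-MEL-5 and rose from 3.01, 2.53 and 2.13 to 4.33, 4.12 and 3.99 CPM in MALME-3M, so that treatment brought the lines to like levels (1.5 ± 0.24, adjusted p = 0.00082).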

How the data were processed

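Total RNA of 12 wells was extracted and sequenced as paired reads, per the labels. The authors used cutadapt, STAR, SAMtools, kallisto and HTSeq on build hg38, per the submitters' processing notes; tool versions, the annotation and whether strand was used: not given in the sources used here. The deposited gene tables hold raw read counts per gene symbol (HTSeq), without normalization. The deposited transcript tables hold estimated counts (kallisto), rounded here for 1 alternative, and TPM values, deposited beside them and used in no test. The 5 summary lines of each gene table name no gene and were left out; reads not assigned to a single place were 7.47 to 13.7 times the gene counts.

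Genes were kept by filterByExpr (minimum count 10), scaled by TMM and tested with edgeR 4.0.16 in R 4.3.3 (quasi-likelihood test on 4 group means, with 8 residual degrees of freedom and 0.0955 as the common biological coefficient of variation). Calls had a Benjamini-Hochberg adjusted p below 0.05. Log2 differences come from these fits, and CPM values were computed from the deposited counts and TMM-scaled library totals. Standard errors are the log2 value divided by the root of F. Groups with 3 counts or fewer over their libraries were set at 3 counts where stated, and exact 95% intervals and these floors cover counting error only. On simulated counts for 15464 genes, the test recovered 42% of differences of 1.5-fold, 78% of 2-fold, 96% of 4-fold and 96% of 8-fold (50 genes each), with 5.45% of calls false. These differences were placed in treated MALME-3M, on genes with a mean above 1 CPM. The change shared by both lines was capped at 4-fold. Recovery was thus not measured for genes at lower levels, and neither figure covers larger responses to IFN-γ.

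Named genes were first the 12 largest calls in each direction. Only genes with a symbol, more than 3 counts in every group and at least 5 CPM in 1 group entered. Added were up to 5 in each direction with a group at the floor and the 6 largest called in opposite directions. A panel of pathway genes and up to 4 called members per list and direction were named too. On the Y chromosome 1 further gene is not described. Others are named as examples within a list and were chosen after their values were seen. Members and gene lists were chosen with earlier results of these data known. Alternatives were other scalings, filters, a robust fit, DESeq2 1.42.0, limma 3.58.1 (voom), a test against 1.5-fold, transcript estimated counts and each library left out. Sequences come from RefSeq (GRCh38.p14) and gene positions from GENCODE 29; the Y box was added to the motifs after the data were seen. Results for 3 genes are not reported here.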

Additional observations from a re-analysis of the deposited data

Results flagged for a closer look

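Some genes were called in opposite directions in the 2 lines, with a called difference between them, and the 6 with the largest difference are given here. GRIN2B, an NMDA receptor subunit, fell from 49.2, 55.7 and 60.8 to 39.7, 34.8 and 35.4 CPM in SK-MEL-5 and rose from 0.0601, 0.362 and 0.364 to 0.721, 0.562 and 0.763 CPM in MALME-3M, a difference of 1.92 on the log2 scale. RGS3 differed by 1.5 with a fall in SK-MEL-5 and a rise in MALME-3M. PPP1R14C, a phosphatase inhibitor, differed by -1.89, PLEKHA4 by -1.53 and C11orf96 by -1.35, each with a rise in SK-MEL-5 and a fall in MALME-3M. PABPC3 differed by -1.37 in the same direction; it is a retrogene copy of PABPC1, so its counts are uncertain.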

How the results depend on the processing

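The number of higher genes (422) was 42 in the test against 1.5-fold and 68 with transcript estimated counts, and 240 to 355 with single libraries left out. The number of lower genes (283) was 40 and 69 under those settings, 426 with DESeq2, and 204 to 362 with single libraries left out. Without MALME-3M IFN-γ replicate 1 the counts were 275 and 362, and without replicate 3 they were 240 and 304; the cause was not tested. Requiring a mean of at least 1 CPM gave 325 higher and 402 lower genes. The transcript tables tied 160246 of 361686 transcripts to genes, with 49.86% to 55.15% of the estimated counts, which left 13497 genes. There the sign reversed for FBLN7 (2.53), TAP1 (0.30), HLA-C (-0.028), SPRY4 (-0.35), IDI1 (0.00707) and PFKFB4 (-0.22), none of them called, and 72 of 126 named genes lost the call, these 6 included. Of 132 named genes, 3 lost the call with DESeq2's size factors, 5 with upper-quartile scaling, 16 with limma voom, 76 against 1.5-fold and 12 to 23 with single libraries left out. Calls that some left-out libraries ended included MCL1 (called in 16 of 23 alternatives), IL18BP (14), MKI67 (17), GIMAP2 (17), SLC15A3 (18), IFIH1 (20) and DFNA5 (18 of 22). No paired analysis was possible because the labels give no replicate numbers. Low counts limit CXCL10, IDO1, IRF8 and HLA-DOA, whose untreated groups stand at or near 0.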
